A study of Mus musculus with 8 samples.

Results

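Interferon-stimulated genes are genes whose transcription rises when a cell senses an interferon, and 41 of them were followed here in cultured mouse regulatory T (Treg) cells with a guide RNA against Foxp3 or a control guide, without or with restimulation of the T cell receptor (TCR). The genes are known interferon targets chosen by name, with earlier results of these data known, and all 41 were found among the 55665 genes of the deposited tables. Of these, 40 had enough reads to be tested. Ifi44, the remaining gene, had 0 to 9 counts per library and is given by its level only.

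The libraries were made from nTreg cells, CD4+GFP+ T cells sorted by flow cytometry out of mouse spleen and lymph nodes and then cultured ex vivo. All groups, controls included, had the genotype RosaCas9/+ Foxp3gfp, so every cell carried the Cas9 nuclease and a green fluorescent reporter of Foxp3, the transcription factor that maintains Treg identity. The 4 groups were Foxp3-guide cells (sgFoxp3) at 3 h of stimulation with antibodies to CD3 and CD28, control-guide cells (sgNC) at 3 h, Foxp3-guide cells mock-treated with the buffer DPBS (0 h), and control-guide cells at 0 h. Each group had 2 libraries, and the sources used here do not say whether these came from separate animals or cultures, so the p-values measure a spread between libraries that may be technical. The design asked which genes differ between Foxp3-guide and control-guide cells with and without TCR stimulation. Foxp3 itself had 76.1 and 71.8 CPM (counts scaled to library size) in Foxp3-guide cells at 3 h, against 679 and 673 CPM in control-guide cells at 3 h. At 0 h it had 87.6 and 88.5 CPM in Foxp3-guide cells, against 764 and 776 CPM in control-guide cells. The log2 change was −3.19 ± 0.044 (SE) at 3 h and −3.13 ± 0.043 at 0 h, so the transcript was lower where the labels place the Foxp3 guide.

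As background, type I interferons act through IFNAR1 and IFNAR2, the kinases JAK1 and TYK2 and a transcription factor complex with STAT2 and IRF9 that binds the interferon-stimulated response element (ISRE). Interferon gamma, which stimulated T cells secrete, acts through IFNGR1 and IFNGR2, the kinases JAK1 and JAK2 and transcription factor dimers that bind gamma-activated sites (GAS). The products of the target genes restrict viruses and intracellular pathogens, and in T cells some of them are also induced during activation.

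Total expected counts were 38729009 to 94807362 per library, and each pair of CPM values below gives the 2 libraries of a group. The 8 markers of T cell and Treg identity were all detected, with summed levels of 4342 to 4392 CPM in Foxp3-guide cells at 3 h, 7619 to 7817 CPM in control-guide cells at 3 h, 2528 to 2577 CPM in Foxp3-guide cells at 0 h and 4443 to 4457 CPM in control-guide cells at 0 h. That sum mixes directions between the guides. With the Foxp3 guide, Cd3d, Cd3g and Cd4 were higher at both times (log2 changes 0.25 to 0.51), and Cd3e was higher at 3 h (0.24). Foxp3 itself, Il2ra and Ctla4 were lower at both times (−3.19 to −0.51), and Ikzf2 was lower at 0 h (−0.76). Markers of several other cells that can carry interferon-stimulated transcripts were low. Summed over the list, 6 B cell markers gave 4.9 to 8.44 CPM, 2 CD8 T cell markers 6.23 to 8.71 CPM, 3 NK cell markers 2.02 to 9.43 CPM and 6 myeloid markers 2.97 to 5.82 CPM across the 8 libraries. Of 5 markers of plasmacytoid dendritic cells, which are strong makers of type I interferon, Siglech and Klk1 had 0 counts in every library. The sum of those 5 was 7.78 to 8.16 CPM in Foxp3-guide cells at 3 h, 9.8 to 10.7 CPM in control-guide cells at 3 h, 11.5 CPM in both Foxp3-guide libraries at 0 h and 21.6 to 22.2 CPM in control-guide cells at 0 h. The 5 stromal markers were higher, and nearly all of their sum was Pecam1, an adhesion molecule of endothelium that T cells can also carry. Their sum was 40.3 to 42.1 CPM in Foxp3-guide cells and 30.2 to 30.7 CPM in control-guide cells at 3 h, against 131 CPM in both Foxp3-guide libraries and 202 to 212 CPM in control-guide cells at 0 h. Summed globin and other erythroid markers were 82.7 to 82.9 CPM in Foxp3-guide cells against 7.86 to 8.14 CPM in control-guide cells at 3 h, and 75.3 to 76.6 CPM in Foxp3-guide cells against 9.99 to 10.7 CPM in control-guide cells at 0 h. Summed levels of 20 cell cycle genes were 1797 to 1807 CPM in Foxp3-guide cells against 579 to 585 CPM in control-guide cells at 3 h, and 5505 to 5516 CPM in Foxp3-guide cells against 1306 to 1346 CPM in control-guide cells at 0 h. The part of any of these in the results was not tested. These are bulk samples, in which fewer cells of a type and less RNA per cell cannot be told apart.

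With the Foxp3 guide, most interferon-stimulated genes that changed were lower, and a minority were higher. At 3 h, 23 of the 40 tested genes were lower, 10 were higher and 7 did not pass the threshold (edgeR's quasi-likelihood test, adjusted p below 0.05), where 30.8% of all 16642 tested genes were lower and 30.7% higher (61.5% in either direction). At 0 h, 24 were lower, 12 were higher and 4 did not pass, where 29.1% of all tested genes were lower and 34.2% higher (63.3% in either direction). The median log2 change of the 40 genes was −0.3 at 3 h and −0.205 at 0 h, beside −0.00859 at 3 h and 0.0225 at 0 h for all tested genes. A change of at least 2-fold past the threshold was seen in 8 lower and 5 higher genes at 3 h, where 8.88% of all tested genes were lower and 7.71% higher by that much. At 0 h it was seen in 6 lower and 5 higher genes, where 6.33% of all tested genes were lower and 9.21% higher. The guide effect of a gene stands here for its log2 change in Foxp3-guide cells over control-guide cells at a given time. Each SE in this report was derived from the quasi-likelihood test, as the absolute log2 change divided by the square root of the F statistic. Such an SE depends on the size of the change and is not a separate estimate of spread. Fold sizes spread widely, with log2 changes of −4.66 (Apol9b) to 2.14 (Rsad2) at 3 h and −2.29 (Apol9a) to 1.56 (Oas2) at 0 h. Both upper ends rest on few reads in control-guide cells. These had 11 and 15 counts of Rsad2 at 3 h, and 4 and 12 counts of Oas2 at 0 h.

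The genes split into groups that moved in opposite directions. With the Foxp3 guide, 21 genes were lower at both times: Apol9a, Apol9b, Dhx58, Dtx3l, Eif2ak2, Gbp2, Gbp3, Gbp7, Herc6, Ifi35, Igtp, Irgm1, Isg20, Ly6e, Parp14, Rtp4, Samd9l, Trim30a, Usp18, Xaf1 and Zbp1. The 7 genes higher at both times were Bst2, Ifi27l2a, Ifit1, Lgals3bp, Oas2, Oas3 and Oasl1. In opposite directions at the 2 times, Ifit1bl1 was lower at 3 h and higher at 0 h, and Ifih1 was higher at 3 h and lower at 0 h. Others passed at a single time: Isg15 and Rsad2 were higher and Parp9 was lower at 3 h, while Ifi27, Ifit3b, Oasl2 and Trim25 were higher and Cmpk2 and Oas1a were lower at 0 h. Ifit3 passed at neither time, with log2 changes of −0.09 ± 0.20 at 3 h and −0.01 ± 0.13 at 0 h. On the deposited TPM scale the changes of Ifi27 and Trim25 at 0 h had the other sign, at −0.17 and −0.08 on log2(TPM + 1) against 0.15 and 0.20 in the count model, and Parp9 was lower at 0 h (−0.19, adjusted p = 0.0224 in limma). Across the 40 genes the log2 change at 3 h and at 0 h, which share no library, had a Pearson r of 0.638 and a Spearman rho of 0.654, given as a description only.

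**Figure D1:**
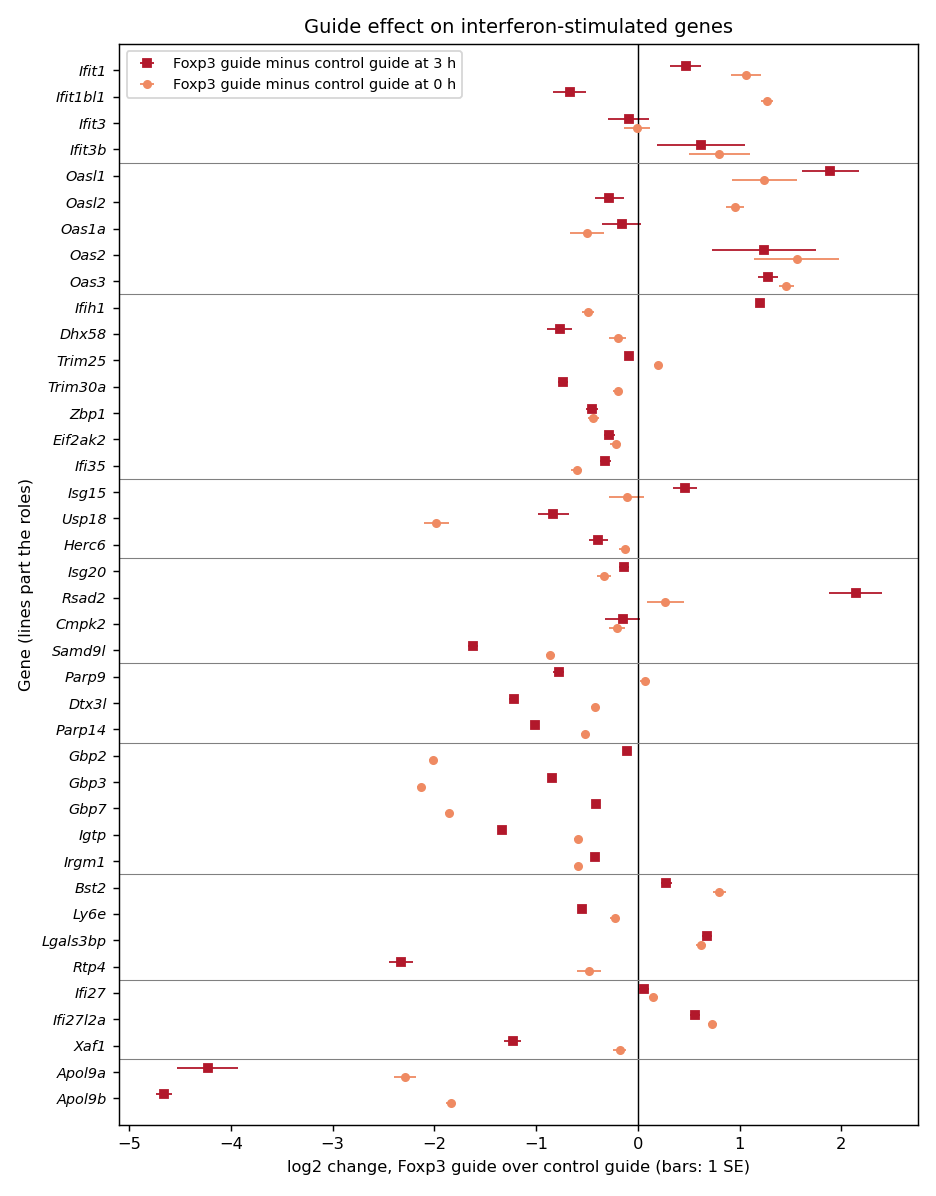
Log2 change of the 40 tested interferon-stimulated genes, Foxp3 guide over control guide (x axis), for each gene (y axis, grouped by role), at 3 h (squares) and 0 h (circles), with bars of 1 SE. The 5 interferon-inducible GTPases and the APOL9 pair lie left of 0 at both times, while Oas3, Oas2 and Oasl1 lie right of it.

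Stimulation for 3 h also lowered more of these genes than it raised, with either guide. In Foxp3-guide cells 24 of 40 genes fell, 13 rose and 3 did not pass, where 44.5% of all tested genes fell and 40.8% rose (85.4% in either direction). In control-guide cells 24 fell, 11 rose and 5 did not pass, where 40.9% fell and 40.9% rose (81.8% in either direction). The median log2 change of the 40 genes was −0.501 in Foxp3-guide cells and −0.446 in control-guide cells, beside −0.068 in Foxp3-guide cells and −0.0104 in control-guide cells for all tested genes. Changes of at least 2-fold past the threshold comprised 14 falls and 7 rises with each guide. Of all tested genes, 28.4% fell and 22.6% rose by that much in Foxp3-guide cells, and 24.2% fell and 21.8% rose in control-guide cells. Bst2, Ifi35, Ifih1, Igtp, Irgm1, Isg15, Isg20, Lgals3bp and Parp14 rose with both guides (9 genes), and 19 genes fell with both. The 3 guanylate-binding protein genes Gbp2, Gbp3 and Gbp7 rose with the Foxp3 guide and fell with the control guide. Parp9 and Rtp4 did the reverse, falling with the Foxp3 guide and rising with the control guide. Directions not kept on other scales were the rises of Ifi35 with the control guide, of Parp14 with the Foxp3 guide and of Parp9 with the control guide. Their log2 changes were 0.15, 0.24 and 0.23 in the count model and −0.22, −0.05 and −0.03 on log2(TPM + 1).

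**Figure D2:**
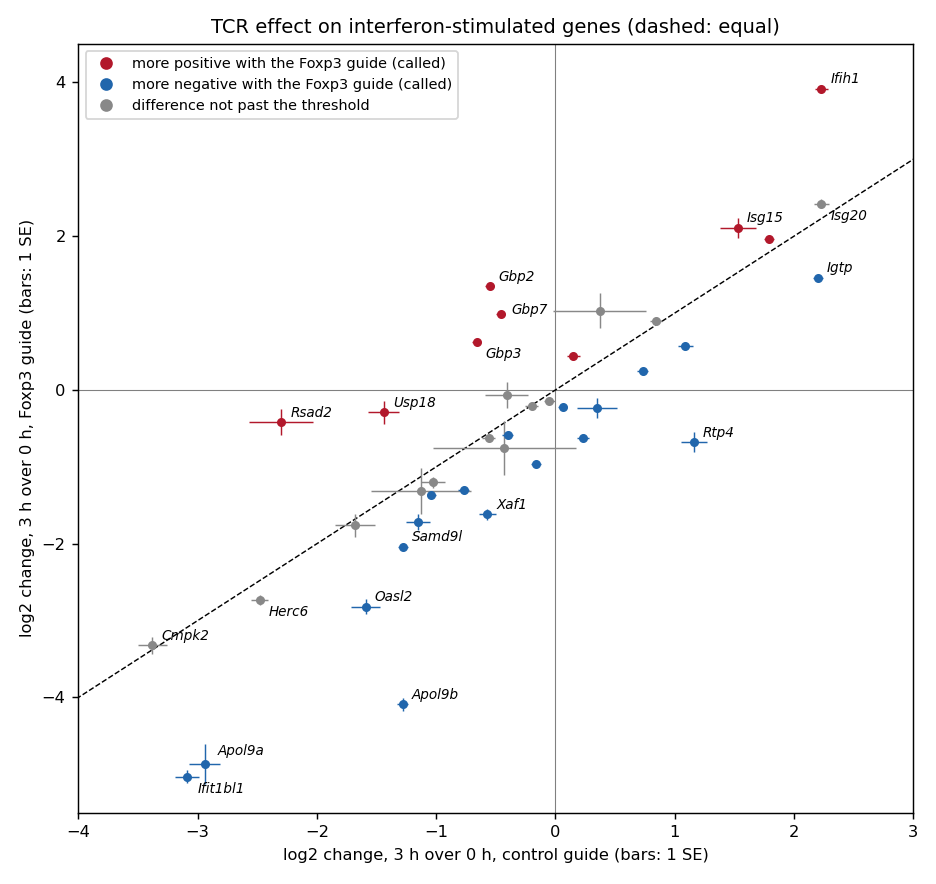
Log2 change at 3 h over 0 h in Foxp3-guide cells (y axis) against control-guide cells (x axis) for the 40 tested interferon-stimulated genes, with bars of 1 SE, coloured by whether the difference between the 2 changes passed the threshold. Gbp2, Gbp3, Gbp7, Ifih1 and Rsad2 lie above the dashed line of equal change, and Apol9b, Apol9a, Ifit1bl1, Rtp4 and Oasl2 lie below it.

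The response to stimulation itself differed between the guides for 27 of the 40 genes, by the test of the difference. It was more negative with the Foxp3 guide for 18 genes and more positive for 9, where 27% and 17.8% of all tested genes passed in those directions (44.8% in either). The median difference was −0.175 on the log2 scale, beside −0.0913 over all tested genes. It was −0.0655 without Foxp3-guide replicate 2 at 3 h. With median-ratio (RLE) scaling it was −0.112, beside −0.0288 over all tested genes, and 48.7% of all genes called were then more positive with the Foxp3 guide, against 39.7% with TMM scaling. At least 2-fold differences past the threshold numbered 6 in each direction, where 6.02% of all tested genes were more negative and 3.33% more positive by that much. In Pearson and Spearman terms the 2 responses had r = 0.847 and rho = 0.819 over the 40 genes, again as a description, and the guides share no library.

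Promoter windows from RefSeq (build GRCm38.p6, 250 bases before to 50 after the annotated start) were found for 31 of the 41 genes and searched on both strands for the ISRE core (GAAA, any 2 bases, then GAAA) and for the GAS motif (TTCNNNGAA, where N is any base); matches may overlap each other. At least 1 ISRE core was present in 19 of the 31 genes (61.3%), against 3.99% of all genes with a window. The GAS motif was present in 7 of the 31 (22.6%), against 9.55% of all genes with a window. Genes with an ISRE core moved in both directions: it was present in 10 of 16 genes lower and 6 of 8 genes higher with the Foxp3 guide at 3 h, and in 11 of 18 lower and 5 of 9 higher at 0 h. A match is a description of the letters in the window and not evidence of binding. Stretches around the matches are given for a selection of the genes that changed by at least 2-fold in a comparison between guides or times, in lower case with the ISRE core matches in capitals, read 5′ to 3′ on the strand of the gene, with matches to the other strand appearing as TTTC repeats.

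The interferon-inducible GTPases, proteins that attack the vacuoles of intracellular pathogens, were lower with the Foxp3 guide in all 5 cases at both times. Counts by role, here and below, stand beside the shares of all tested genes. With the Foxp3 guide, 30.8% of these were lower and 30.7% higher at 3 h, and 29.1% lower and 34.2% higher at 0 h. No role was tested as a set. Gbp2, Gbp3 and Gbp7 encode guanylate-binding proteins and lie in that family's cluster on chromosome 3 within chr3:142530342-142638008, while Igtp (also called IRGM3) and Irgm1 are immunity-related GTPases on chromosome 11. Each of the 5 windows held an ISRE core, and 2 of them, those of Gbp7 and Igtp, also held a GAS motif. The stretches are those of Gbp2 (chr3:142620584-142620633, plus strand), Gbp3 (chr3:142559979-142560034, plus), Gbp7 (chr3:142530263-142530312, plus), Igtp (chr11:58199502-58199551, plus) and Irgm1 (chr11:48871415-48871470, minus):
Gbp2: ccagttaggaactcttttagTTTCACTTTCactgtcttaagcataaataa
Gbp3: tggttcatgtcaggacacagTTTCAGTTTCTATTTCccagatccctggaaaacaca
Gbp7: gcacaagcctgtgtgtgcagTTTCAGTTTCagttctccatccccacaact
Igtp: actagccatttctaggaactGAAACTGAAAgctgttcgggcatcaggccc
Irgm1: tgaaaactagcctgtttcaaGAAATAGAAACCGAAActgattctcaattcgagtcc

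Gbp2 had 256 and 261 CPM in Foxp3-guide cells and 285 and 273 CPM in control-guide cells at 3 h, against 101 and 101 CPM in Foxp3-guide cells and 403 and 413 CPM in control-guide cells at 0 h. The guides were far apart at 0 h and close at 3 h: Gbp2 rose with the Foxp3 guide (log2 change 1.35 ± 0.039) and fell with the control guide (−0.55 ± 0.038). The guide effect on Gbp2 was −0.11 ± 0.038 at 3 h (adjusted p = 0.016) and −2.01 ± 0.040 at 0 h (adjusted p = 1.4e-22). Gbp3 had 96.3 and 102 CPM in Foxp3-guide cells and 177 and 179 CPM in control-guide cells at 3 h. At 0 h Gbp3 had 64.4 and 64 CPM in Foxp3-guide cells and 278 and 283 CPM in control-guide cells. The guide effect on Gbp3 was −0.84 ± 0.038 at 3 h and −2.13 ± 0.039 at 0 h. Gbp7 followed the same course, at 139.7 and 136 CPM in Foxp3-guide cells and 187 and 178 CPM in control-guide cells at 3 h, against 68.8 and 70 CPM in Foxp3-guide cells and 256 and 249 CPM in control-guide cells at 0 h. For each of the 3 genes the Foxp3-guide libraries lay below the control-guide libraries at both times, by the widest margin at 0 h. The difference between the responses to stimulation was 1.90 ± 0.055 for Gbp2, 1.45 ± 0.054 for Gbp7 and 1.28 ± 0.054 for Gbp3, with adjusted p of at most 2.1e-15 in edgeR's quasi-likelihood test. Gbp2 was no longer past the threshold at 3 h when control-guide replicate 1 or either Foxp3-guide library of that time was left out (log2 change −0.09 to −0.08, adjusted p 0.121 to 0.191), and 12.7% of the 50-base words of Gbp7 transcripts occur in another gene, so its reads are less certain.

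Igtp and Irgm1, by contrast, rose with both guides. Igtp had 263 and 269 CPM in Foxp3-guide cells and 671 and 676 CPM in control-guide cells at 3 h. At 0 h Igtp had 96.5 and 97.7 CPM in Foxp3-guide cells and 149 and 145 CPM in control-guide cells. Its rise was smaller with the Foxp3 guide, at 1.46 ± 0.039 against 2.20 ± 0.040 with the control guide, a difference of −0.75 ± 0.054 (adjusted p = 4.6e-11, edgeR). The guide effect on Igtp was −1.34 ± 0.038 at 3 h and −0.59 ± 0.039 at 0 h. A share of 11.8% of its 50-base words is found in another gene, mainly Irgm2. Irgm1, a regulator of autophagy and of the other family members, had 229 and 235 CPM in Foxp3-guide cells and 316 and 307 CPM in control-guide cells at 3 h. At 0 h Irgm1 had 58.6 and 61 CPM in Foxp3-guide cells and 89.5 and 90.4 CPM in control-guide cells. Its guide effect was −0.42 ± 0.037 at 3 h and −0.59 ± 0.040 at 0 h. Its rises of 1.96 in Foxp3-guide cells and 1.79 in control-guide cells differed by 0.17 ± 0.054 (adjusted p = 0.016), a call lost without control-guide replicate 2 or Foxp3-guide replicate 1 at 0 h (0.13 to 0.15, adjusted p 0.0604 to 0.131).

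Apol9a and Apol9b, a pair of mouse apolipoprotein L genes on chromosome 15, had the lowest log2 changes of all 40 genes with the Foxp3 guide at 3 h. Their windows held the same 56 bases with the same pair of overlapping ISRE cores, at chr15:77411104-77411159 (minus strand) for Apol9a and chr15:77729015-77729070 (plus strand) for Apol9b:
Apol9a: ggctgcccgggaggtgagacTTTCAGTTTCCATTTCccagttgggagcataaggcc
Apol9b: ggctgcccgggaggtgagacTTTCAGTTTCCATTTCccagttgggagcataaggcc
Apol9b had 1.18 and 1.12 CPM in Foxp3-guide cells and 28.8 and 29.2 CPM in control-guide cells at 3 h, against 19.5 and 19.6 CPM in Foxp3-guide cells and 69.9 and 70.7 CPM in control-guide cells at 0 h. Every Foxp3-guide library lay below every control-guide library of the same time. The guide effect was −4.66 ± 0.080 at 3 h and −1.84 ± 0.047 at 0 h, and the change after stimulation was −4.09 ± 0.081 in Foxp3-guide cells and −1.28 ± 0.047 in control-guide cells. Apol9a had 0.0816 and 0.0608 CPM in Foxp3-guide cells (4 and 5 counts) and 1.44 and 1.2 CPM in control-guide cells at 3 h. At 0 h Apol9a had 2.04 and 2.11 CPM in Foxp3-guide cells and 10.4 and 9.97 CPM in control-guide cells. For Apol9a the guide effect was −4.23 ± 0.30 at 3 h and −2.29 ± 0.11 at 0 h. The direction of its difference in response, −1.94 ± 0.38 in the count model, was 0.94 on log2(TPM + 1), a scale on which 1 TPM outweighs the 0.16 and 0.05 TPM of the Foxp3-guide libraries at 3 h. The genes share sequence, 52.3% of the 50-base words of Apol9b and 16.5% of those of Apol9a occurring in another gene, so how reads were divided between them is uncertain.

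**Figure D3:**
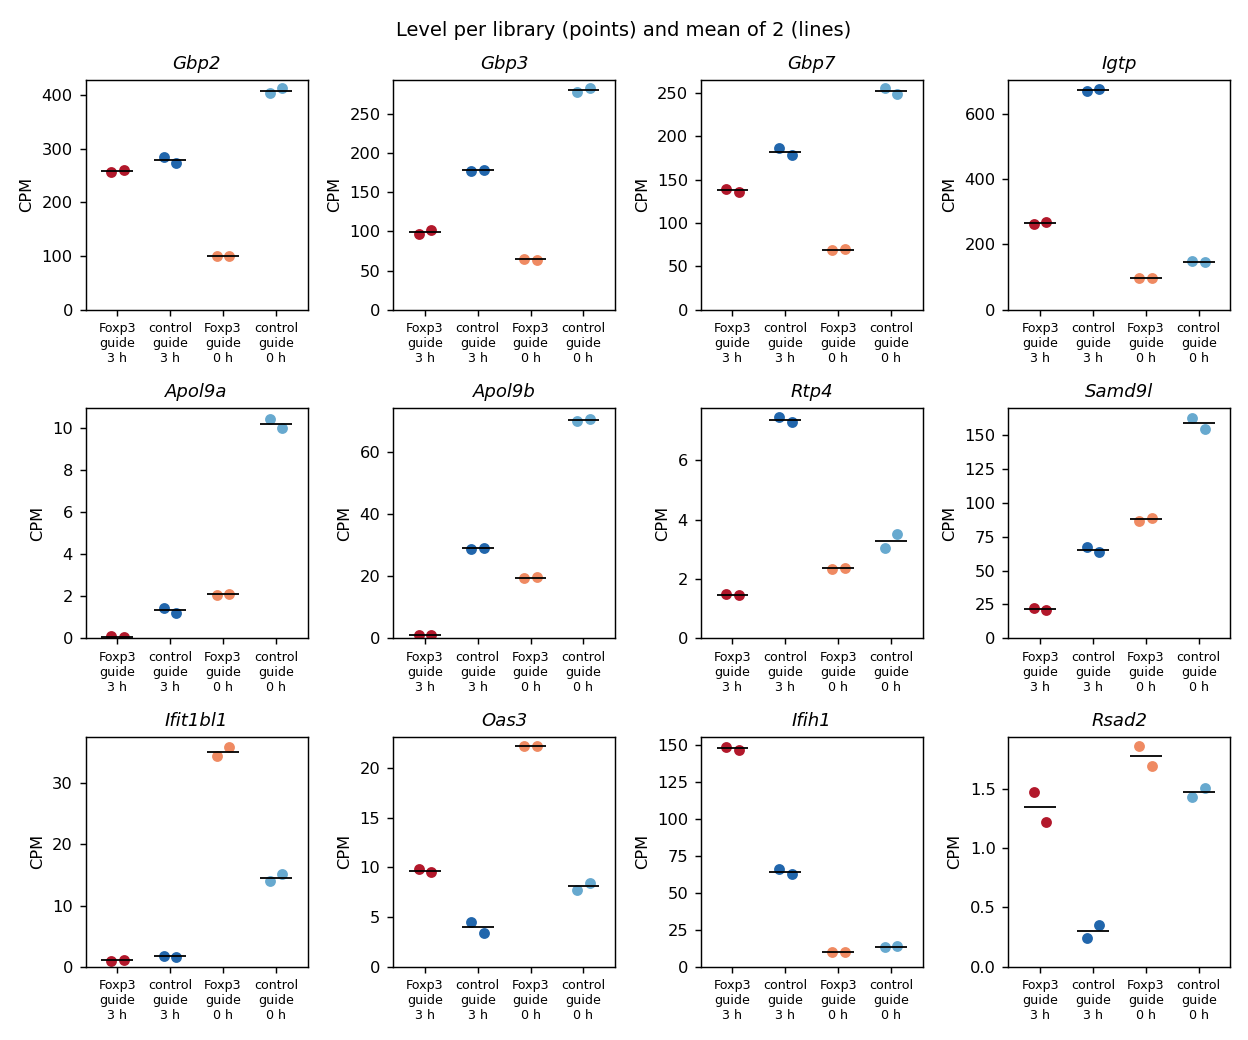
Level in CPM (y axis, from 0) of 12 interferon-stimulated genes in each of the 8 libraries (points) with the mean of the 2 libraries of a group (lines), by guide and time (x axis). Gbp2, Gbp3 and Gbp7 are lowest in Foxp3-guide cells at 0 h, Apol9a, Apol9b, Rtp4 and Samd9l are lowest in Foxp3-guide cells at 3 h, and Oas3 and Ifit1bl1 are highest in Foxp3-guide cells at 0 h.

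The IFIT genes encode proteins that bind viral RNA and block its translation, and 3 of the 4 were higher with the Foxp3 guide at 0 h. Ifit1bl1, a mouse relative of Ifit1, stood out for opposite directions. It had 0.98 and 1.13 CPM in Foxp3-guide cells and 1.78 and 1.63 CPM in control-guide cells at 3 h. At 0 h Ifit1bl1 had 34.5 and 35.9 CPM in Foxp3-guide cells and 14 and 15.1 CPM in control-guide cells. The Foxp3-guide libraries were the highest at 0 h and the lowest at 3 h. After stimulation it changed by −5.03 ± 0.089 with the Foxp3 guide, the largest fall among the 40 genes, and by −3.09 ± 0.10 with the control guide. The guide effect was −0.67 ± 0.16 at 3 h (adjusted p = 0.00065) and 1.27 ± 0.062 at 0 h (adjusted p = 5.1e-15), and the difference in response was −1.94 ± 0.17. Ifit1 had 2.69 and 2.61 CPM in Foxp3-guide cells and 1.89 and 1.94 CPM in control-guide cells at 3 h. At 0 h Ifit1 had 2.88 and 3.35 CPM in Foxp3-guide cells and 1.59 and 1.41 CPM in control-guide cells. It was higher with the Foxp3 guide by 0.47 ± 0.15 at 3 h, a call lost with DESeq2 and on the TPM scale, and by 1.06 ± 0.15 at 0 h. Ifit3 and Ifit3b share 51.2% and 45% of their 50-base words with other genes, mainly each other, and are uncertain. Ifit3 fell after stimulation with the Foxp3 guide (−1.76 ± 0.15) and the control guide (−1.68 ± 0.17), to 0.918 and 0.912 CPM in Foxp3-guide cells and 0.888 and 1.06 CPM in control-guide cells at 3 h. At 0 h Ifit3 had 3.29 and 2.9 CPM in Foxp3-guide cells and 3.28 and 2.96 CPM in control-guide cells. The Ifit1bl1 stretch at chr19:34602043-34602092 (minus) had a single ISRE core and the Ifit1 stretch at chr19:34640765-34640833 (plus) had 2, shown because the genes differ at 3 h:
Ifit1bl1: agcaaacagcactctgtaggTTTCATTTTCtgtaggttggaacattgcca
Ifit1: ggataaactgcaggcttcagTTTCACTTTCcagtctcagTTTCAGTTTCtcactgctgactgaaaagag

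The OAS genes encode 2′-5′-oligoadenylate synthetases, which sense double-stranded RNA and activate RNase L, and OAS-like proteins. They were the group with most genes higher with the Foxp3 guide, 3 of 5 at 3 h with none lower, and 4 of 5 at 0 h with Oas1a lower. Of all tested genes, 30.7% were higher at 3 h and 34.2% at 0 h. Oas3 had 9.82 and 9.52 CPM in Foxp3-guide cells and 4.48 and 3.42 CPM in control-guide cells at 3 h. At 0 h Oas3 had 22.2 and 22.2 CPM in Foxp3-guide cells and 7.75 and 8.38 CPM in control-guide cells. It was higher with the Foxp3 guide by 1.28 ± 0.10 at 3 h and 1.46 ± 0.078 at 0 h, without overlap. It fell after stimulation with the Foxp3 guide (−1.20 ± 0.073) and the control guide (−1.03 ± 0.10), and the difference of −0.17 ± 0.13 did not pass the threshold (adjusted p = 0.29). It passed without control-guide replicate 2 at 3 h (−0.36, adjusted p = 0.0316) and on log2(TPM + 1). Oasl2 had 1.55 and 1.53 CPM in Foxp3-guide cells and 1.93 and 1.82 CPM in control-guide cells at 3 h. At 0 h Oasl2 had 10.8 and 11 CPM in Foxp3-guide cells and 5.88 and 5.42 CPM in control-guide cells. It was higher with the Foxp3 guide at 0 h (0.95 ± 0.088) and not past the threshold at 3 h (−0.28 ± 0.14, adjusted p = 0.092), with a difference in response of −1.23 ± 0.17. The other 3 of the 5 were scarce, at most 2.3 CPM in any library. Oasl1 was higher with the Foxp3 guide by 1.89 ± 0.28 at 3 h and 1.24 ± 0.32 at 0 h, and Oas2, at 0.0894 to 0.546 CPM, by 1.24 ± 0.51 at 3 h and 1.56 ± 0.42 at 0 h. The call of Oas2 was lost at 3 h without either control-guide library or Foxp3-guide replicate 1 of that time (1.01 to 1.42, adjusted p 0.0785 to 0.166), and at 0 h without control-guide replicate 1 (1.05, adjusted p = 0.0616). Oas1a, with 57.6% of its 50-base words in other genes, mainly Oas1g, is uncertain. The stretch of Oas3 with its ISRE core is chr5:120777705-120777754 (minus):
Oas3: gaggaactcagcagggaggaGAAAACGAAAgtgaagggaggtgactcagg

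Among the 7 sensors of foreign nucleic acid and their regulators, Ifih1, which encodes the double-stranded RNA sensor MDA5, went apart from the rest. It had 149 and 147 CPM in Foxp3-guide cells and 66.1 and 62.5 CPM in control-guide cells at 3 h. At 0 h Ifih1 had 9.78 and 9.72 CPM in Foxp3-guide cells and 13.4 and 13.9 CPM in control-guide cells. The Foxp3-guide libraries were the highest at 3 h and the lowest at 0 h. Ifih1 rose by 3.92 ± 0.050 with the Foxp3 guide and by 2.23 ± 0.052 with the control guide, a difference of 1.69 ± 0.074 (adjusted p = 3.8e-15, edgeR). The guide effect was 1.20 ± 0.042 at 3 h and −0.49 ± 0.060 at 0 h. Its ISRE core lies after the start, within the stretch chr2:62646206-62646243 (minus):
Ifih1: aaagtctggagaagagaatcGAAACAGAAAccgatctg
Of the other 6, 5 were lower with the Foxp3 guide at both times, with log2 changes of −0.77 to −0.28 at 3 h and −0.60 to −0.20 at 0 h. Dhx58 encodes LGP2, a regulator of MDA5 signalling, and had 3.02 and 2.65 CPM in Foxp3-guide cells and 4.37 and 5.22 CPM in control-guide cells at 3 h. At 0 h Dhx58 had 9.07 and 9.44 CPM in Foxp3-guide cells and 11 and 10.3 CPM in control-guide cells. Its call at 0 h (−0.20 ± 0.087, adjusted p = 0.048) was lost with DESeq2, without the filter on low counts and without any single library of that time (−0.24 to −0.15, adjusted p 0.071 to 0.259). Trim30a, which encodes a TRIM protein that restrains Toll-like receptor signalling, had 29.5 and 28.1 CPM in Foxp3-guide cells and 49.7 and 46.4 CPM in control-guide cells at 3 h. At 0 h Trim30a had 69.3 and 72.5 CPM in Foxp3-guide cells and 83.6 and 79.7 CPM in control-guide cells. Its fall was deeper with the Foxp3 guide (−1.30 ± 0.048 against −0.77 ± 0.048 with the control guide). Ifi35, which encodes a secreted and cytoplasmic regulator of innate signalling, had 32.3 and 33.9 CPM in Foxp3-guide cells and 39.1 and 43.6 CPM in control-guide cells at 3 h. At 0 h Ifi35 had 24.3 and 24.7 CPM in Foxp3-guide cells and 38.1 and 36.3 CPM in control-guide cells. Zbp1, a sensor of Z-form nucleic acid that triggers cell death, and Eif2ak2, the double-stranded RNA-activated kinase PKR, were lower by smaller amounts. Their guide effects at 3 h were −0.45 ± 0.057 for Zbp1 and −0.28 ± 0.056 for Eif2ak2, and at 0 h −0.44 ± 0.054 for Zbp1 and −0.22 ± 0.051 for Eif2ak2.

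The ISG15 system comprises the ubiquitin-like protein ISG15, the enzyme USP18 that removes it and that also inhibits IFNAR signalling, and the ligase HERC6 that attaches it in mice. The 3 genes moved in different ways. Usp18 had 1.59 and 1.4 CPM in Foxp3-guide cells and 2.73 and 2.53 CPM in control-guide cells at 3 h. At 0 h Usp18 had 1.65 and 1.96 CPM in Foxp3-guide cells and 6.75 and 7.52 CPM in control-guide cells. Its guide effect was −0.83 ± 0.15 at 3 h and −1.98 ± 0.12 at 0 h. It fell after stimulation in control-guide cells (−1.44 ± 0.13) and was not past the threshold in Foxp3-guide cells (−0.29 ± 0.15, adjusted p = 0.075), a difference of 1.15 ± 0.20. Isg15 rose with the Foxp3 guide (2.11 ± 0.13) and the control guide (1.53 ± 0.15), to 6.04 and 6.35 CPM in Foxp3-guide cells and 4.17 and 4.86 CPM in control-guide cells at 3 h. At 0 h Isg15 had 1.62 and 1.25 CPM in Foxp3-guide cells and 1.61 and 1.51 CPM in control-guide cells. The guides overlapped at 0 h (−0.11 ± 0.17) and stood apart at 3 h (0.46 ± 0.12, adjusted p = 0.0014), a call that was not kept on the TPM scale. Herc6 fell with the Foxp3 guide (−2.73 ± 0.069) and the control guide (−2.48 ± 0.072), to 5.45 and 4.61 CPM in Foxp3-guide cells and 6.79 and 6.16 CPM in control-guide cells at 3 h. At 0 h Herc6 had 31.9 and 33.9 CPM in Foxp3-guide cells and 36.5 and 35.8 CPM in control-guide cells. Its guide effect of −0.39 ± 0.091 at 3 h was lost on the TPM scale and without Foxp3-guide replicate 2 at 3 h (−0.21, adjusted p = 0.116). The effect of −0.13 ± 0.055 at 0 h was lost in 9 of 19 alternatives, among them the omission of any single library of that time (−0.17 to −0.08, adjusted p 0.0524 to 0.357). A share of 12.5% of the 50-base words of Herc6 also occurs in another gene, so its reads are less certain. Isg15, the gene of the 3 that rose, had 3 overlapping ISRE cores within chr4:156200855-156200916 (minus):
Isg15: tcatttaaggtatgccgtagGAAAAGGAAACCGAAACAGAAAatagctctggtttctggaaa

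Of the nuclease and nucleotide enzymes, Rsad2 (viperin, which makes a chain-terminating ribonucleotide) and Cmpk2 (a mitochondrial nucleotide kinase) are neighbours on chromosome 12, in opposite orientation and 12751 bases apart. Rsad2 had 1.47 and 1.22 CPM in Foxp3-guide cells and 0.244 and 0.354 CPM in control-guide cells at 3 h. At 0 h Rsad2 had 1.86 and 1.69 CPM in Foxp3-guide cells and 1.43 and 1.51 CPM in control-guide cells. The control-guide libraries at 3 h stood furthest from the others. Rsad2 fell after stimulation with the control guide (−2.30 ± 0.27) and by less with the Foxp3 guide (−0.42 ± 0.17, adjusted p = 0.025 in edgeR). The latter call was lost in 4 of 19 alternatives. The guide effect was 2.14 ± 0.26 at 3 h (adjusted p = 1.5e-07) and 0.27 ± 0.18 at 0 h (adjusted p = 0.19), and the difference in response was 1.87 ± 0.33. Cmpk2 fell with the Foxp3 guide (−3.32 ± 0.11) and the control guide (−3.38 ± 0.12). It had 1.04 and 1.05 CPM in Foxp3-guide cells and 1.15 and 1.16 CPM in control-guide cells at 3 h. At 0 h Cmpk2 had 10.5 and 10.4 CPM in Foxp3-guide cells and 12.4 and 11.6 CPM in control-guide cells. At 3 h its guide effect was −0.15 ± 0.17 (adjusted p = 0.52). The Rsad2 window held an ISRE core within chr12:26456543-26456592 (minus), and no core was found in the window of Cmpk2:
Rsad2: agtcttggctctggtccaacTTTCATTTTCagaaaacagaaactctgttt
Samd9l, which encodes an antiviral inhibitor of translation and cell growth, had 22 and 20.8 CPM in Foxp3-guide cells and 67.7 and 63.4 CPM in control-guide cells at 3 h, against 86.9 and 89.1 CPM in Foxp3-guide cells and 163 and 155 CPM in control-guide cells at 0 h. The guides did not overlap at either time, with guide effects of −1.62 ± 0.049 at 3 h and −0.86 ± 0.041 at 0 h. Isg20, an exonuclease gene, rose with the Foxp3 guide (2.42 ± 0.058) and the control guide (2.23 ± 0.061). It had 46.6 and 47.2 CPM in Foxp3-guide cells and 49.3 and 53.9 CPM in control-guide cells at 3 h. At 0 h Isg20 had 9.14 and 8.37 CPM in Foxp3-guide cells and 11.1 and 10.9 CPM in control-guide cells. Its guide effect of −0.14 ± 0.050 at 3 h was lost without control-guide replicate 2 or either Foxp3-guide library of that time (−0.13 to −0.07, adjusted p 0.094 to 0.286).

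Parp9, Dtx3l and Parp14 lie together on chromosome 16 within chr16:35832874-35972605 and encode an ADP-ribosyltransferase, its ubiquitin ligase partner and a further ADP-ribosyltransferase. The gene models of Dtx3l and Parp9 overlap head to head by 682 bases on opposite strands, where reads cannot be told apart unless they were counted by strand. The deposited values are labelled as stranded, and the strand setting of the quantification is not given in the sources used here. All 3 were lower with the Foxp3 guide at 3 h, and all 3 responded more negatively to stimulation with the Foxp3 guide, with differences of −0.85 to −0.50. Dtx3l had 53.8 and 50.8 CPM in Foxp3-guide cells and 125 and 118 CPM in control-guide cells at 3 h. At 0 h Dtx3l had 98.5 and 105 CPM in Foxp3-guide cells and 133 and 139 CPM in control-guide cells. The guide effect was −1.22 ± 0.044 at 3 h and −0.42 ± 0.042 at 0 h. Parp14 had 135 and 129 CPM in Foxp3-guide cells and 277 and 254 CPM in control-guide cells at 3 h. At 0 h Parp14 had 111 and 113 CPM in Foxp3-guide cells and 156 and 163 CPM in control-guide cells. It differed between guides by −1.01 ± 0.042 at 3 h and by −0.52 ± 0.043 at 0 h. Parp9 changed by −0.78 ± 0.050 at 3 h (adjusted p = 1.1e-12) and by 0.07 ± 0.048 at 0 h (adjusted p = 0.22).

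The genes for membrane and secreted proteins were split, with 2 lower and 2 higher with the Foxp3 guide at each time. Rtp4, which encodes a receptor-transporting protein that curbs flavivirus replication, had 1.49 and 1.45 CPM in Foxp3-guide cells and 7.46 and 7.29 CPM in control-guide cells at 3 h. At 0 h Rtp4 had 2.35 and 2.36 CPM in Foxp3-guide cells and 3.06 and 3.51 CPM in control-guide cells. It fell with the Foxp3 guide (−0.68 ± 0.13) and rose with the control guide (1.16 ± 0.11), a difference of −1.85 ± 0.18 (adjusted p = 5e-09, edgeR). The guide effect was −2.33 ± 0.12 at 3 h and −0.48 ± 0.12 at 0 h. Of its 50-base words, 11.6% also occur in another gene. Ly6e, a surface protein that blocks coronavirus entry, had 316 and 326 CPM in Foxp3-guide cells and 461 and 481 CPM in control-guide cells at 3 h. At 0 h Ly6e had 828 and 824 CPM in Foxp3-guide cells and 974 and 961 CPM in control-guide cells. Between guides it differed by −0.55 ± 0.041 at 3 h and −0.23 ± 0.040 at 0 h. Bst2, which encodes tetherin, a protein that holds budding virus at the cell surface, was higher with the Foxp3 guide by 0.28 ± 0.054 at 3 h, a call lost on the TPM scale, and by 0.80 ± 0.061 at 0 h. It had 34.9 and 36.7 CPM in Foxp3-guide cells and 28.6 and 30.3 CPM in control-guide cells at 3 h. At 0 h Bst2 had 24.9 and 23.3 CPM in Foxp3-guide cells and 14.5 and 13.3 CPM in control-guide cells. Lgals3bp, which encodes a secreted galectin-binding glycoprotein, was higher by 0.68 ± 0.047 at 3 h and 0.62 ± 0.050 at 0 h.

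Among the remaining genes, Ifi27l2a and Ifi27, neighbours on chromosome 12 that encode small mitochondrial proteins, and Xaf1, which encodes an antagonist of the caspase inhibitor XIAP, went different ways. Ifi27l2a had 85.8 and 91.1 CPM in Foxp3-guide cells and 58 and 62.3 CPM in control-guide cells at 3 h. At 0 h Ifi27l2a had 132 and 132 CPM in Foxp3-guide cells and 76.7 and 82.4 CPM in control-guide cells. It was higher with the Foxp3 guide by 0.56 ± 0.046 at 3 h and 0.73 ± 0.044 at 0 h. Ifi27 changed by 0.06 ± 0.047 at 3 h (adjusted p = 0.27) and by 0.15 ± 0.046 at 0 h. Xaf1 had 5.02 and 4.54 CPM in Foxp3-guide cells and 11.3 and 10.9 CPM in control-guide cells at 3 h. At 0 h Xaf1 had 14.1 and 15.1 CPM in Foxp3-guide cells and 16.4 and 16.6 CPM in control-guide cells. Its guide effect was −1.23 ± 0.082 at 3 h and −0.18 ± 0.067 at 0 h, and the difference between its falls after stimulation was −1.05 ± 0.11. The call at 0 h was lost in 5 alternatives, including without either control-guide library or Foxp3-guide replicate 1 of that time (−0.18 to −0.11, adjusted p 0.0783 to 0.271). Ifi44 had 0 and 0.109 CPM in Foxp3-guide cells and 0.155 and 0.189 CPM in control-guide cells at 3 h. At 0 h Ifi44 had 0.028 and 0.0145 CPM in Foxp3-guide cells and 0.0447 and 0.0204 CPM in control-guide cells. These were too few reads for a comparison.

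**Figure D4:**
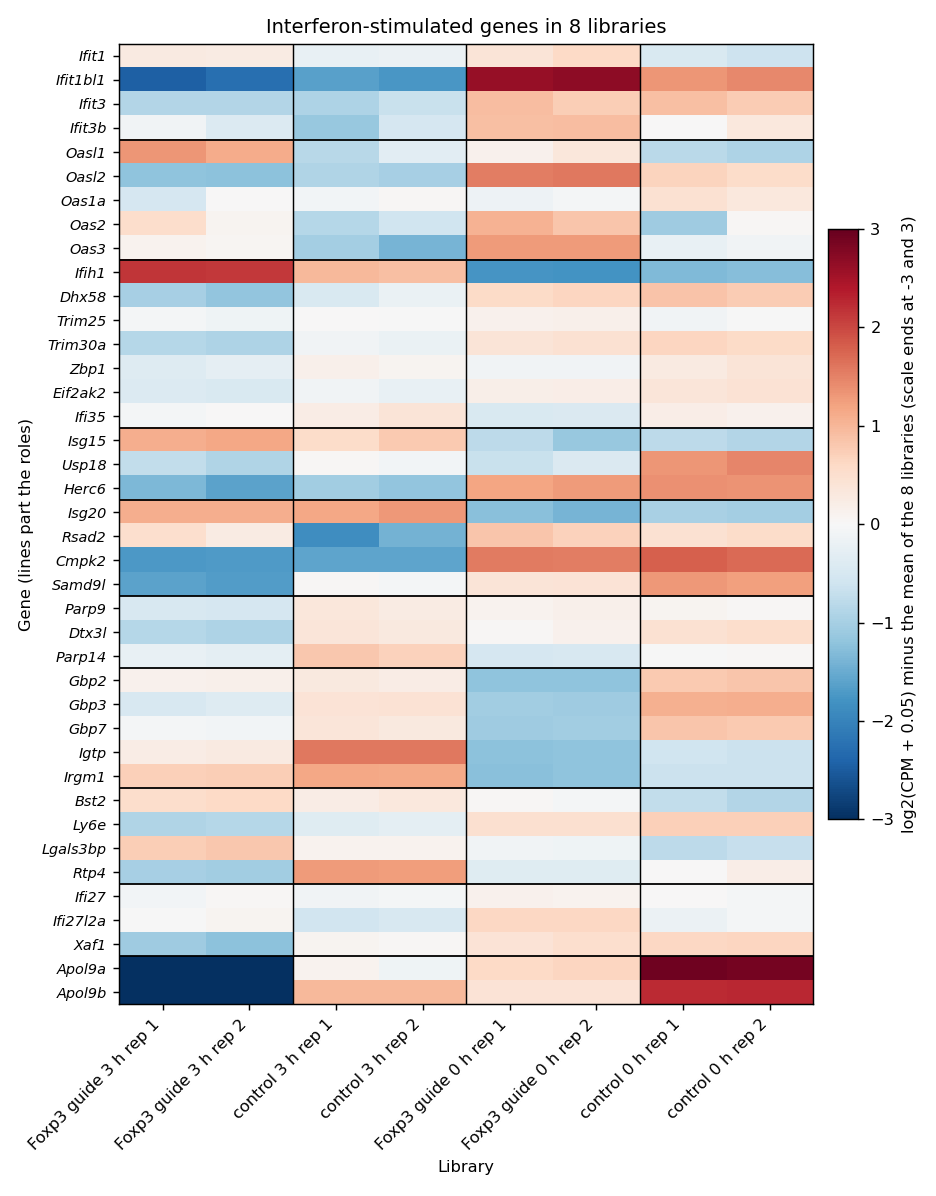
Level of the 40 tested interferon-stimulated genes (rows, grouped by role) in the 8 libraries (columns, by guide and time), as log2(CPM + 0.05) minus the gene's mean over the 8 libraries; the colour scale ends at −3 and 3. Libraries of the same group look alike, and single roles hold rows of opposite colour, such as Isg20 and Cmpk2.

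Compared per transcript length, in deposited TPM (a length-corrected share of transcripts), Ly6e was the most abundant of the 41 genes, with a mean of 1262 TPM over the 8 libraries. Next in order were Ifi27l2a at 485 TPM, Igtp at 227 TPM, Gbp2 at 168 TPM and Ifi27 at 149.9 TPM. The order differed between groups: Igtp had 511 TPM and Ifi27l2a 302 TPM in control-guide cells at 3 h, whereas in Foxp3-guide cells at 0 h Igtp had 78.8 TPM, Gbp2 64.1 TPM and Ifi27 170.3 TPM. At the low end were Rsad2 at 0.504 TPM, Ifit3b at 0.328 TPM, Oas2 at 0.129 TPM and Ifi44 at 0.0362 TPM. The summed TPM of the 41 genes was 1967 and 1976 in Foxp3-guide cells and 2922 and 2884 in control-guide cells at 3 h, against 3152 and 3185 in Foxp3-guide cells and 4522 and 4520 in control-guide cells at 0 h. Ly6e made up 24.9% to 48.9% of this sum. The median TPM of the 41 genes was 7.59 and 7.33 in Foxp3-guide cells and 18.3 and 16.8 in control-guide cells at 3 h, against 20.8 and 22.3 in Foxp3-guide cells and 23.6 and 23.3 in control-guide cells at 0 h.

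The upstream pathway was examined with lists that exclude the 41 genes. For comparison, 30.8% of all tested genes were lower and 30.7% higher with the Foxp3 guide at 3 h. At 0 h, 29.1% were lower and 34.2% higher. Of 9 interferon genes, only Ifng (interferon gamma) had enough reads to be tested, and Ifna1, Ifna2, Ifnk, Ifnl2 and Ifnl3 had 0 counts in every library. Ifnb1 had 3 counts and Ifna4 had 8 counts over the Foxp3-guide libraries at 3 h and 0 elsewhere. Ifng had 447 and 452 CPM in Foxp3-guide cells and 183 and 188 CPM in control-guide cells at 3 h. At 0 h Ifng had 0.364 and 0.349 CPM in Foxp3-guide cells and 0.313 and 0.449 CPM in control-guide cells. It was higher with the Foxp3 guide by 1.27 ± 0.037 at 3 h, while the guides overlapped at 0 h (−0.10 ± 0.26, adjusted p = 0.79). All 6 receptor genes were lower with the Foxp3 guide at 3 h, and at 0 h 4 were lower and 2 higher. Ifngr1 had 31 and 33.3 CPM in Foxp3-guide cells and 110.3 and 112 CPM in control-guide cells at 3 h. At 0 h Ifngr1 had 584 and 598 CPM in Foxp3-guide cells and 1036 and 1037 CPM in control-guide cells. Between guides it differed by −1.79 ± 0.046 at 3 h and −0.81 ± 0.041 at 0 h. At 3 h Ifnlr1, a receptor chain for lambda interferons, changed by −3.03 ± 0.28 at no more than 1.72 CPM, Il10rb, its partner chain, by −1.23 ± 0.048 and Ifngr2 by −1.17 ± 0.057.

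The counts that follow stand beside 61.5% of all tested genes called in either direction at 3 h and 63.3% at 0 h. No list was tested as a set. Of 5 signal transducers, 4 were lower and 1 was higher with the Foxp3 guide at 3 h, and 2 were lower and 1 higher at 0 h. Jak2 was the transducer higher with the Foxp3 guide, by 1.30 ± 0.043 at 3 h and 0.85 ± 0.044 at 0 h. Among 6 interferon regulatory factors, 5 were lower and none higher with the Foxp3 guide at 3 h, and 3 were lower and 2 higher at 0 h. Irf1 had 134 and 136 CPM in Foxp3-guide cells and 469 and 475 CPM in control-guide cells at 3 h. At 0 h Irf1 had 77.8 and 80.4 CPM in Foxp3-guide cells and 113 and 113 CPM in control-guide cells. Its guide effect was −1.80 ± 0.037 at 3 h and −0.52 ± 0.038 at 0 h. Irf5 changed by −1.39 ± 0.052 at 3 h. Irf7, the factor that amplifies type I interferon responses, was lower at 3 h (−0.40 ± 0.090) and higher at 0 h (0.54 ± 0.069) with the Foxp3 guide, with 4.78 and 5.57 CPM in Foxp3-guide cells against 6.7 and 7.13 CPM in control-guide cells at 3 h, and 19.3 CPM in both Foxp3-guide libraries against 12.8 and 13.6 CPM in control-guide cells at 0 h. Of 7 inhibitors of the pathway, 4 were lower and 2 higher at 3 h, and 2 were lower and 4 higher at 0 h. Socs1, which blocks JAK kinases, changed by −0.63 ± 0.061 at 3 h and −1.99 ± 0.076 at 0 h, Socs3 by −1.05 ± 0.054 at 3 h and −1.35 ± 0.049 at 0 h, and Irf2bp2, a corepressor partner of IRF2, by −1.17 ± 0.038 at 3 h and 0.26 ± 0.038 at 0 h. Among 15 other nucleic acid sensing genes, 11 were lower and 1 higher at 3 h, and 9 were lower and 2 higher at 0 h. Tlr7 changed by −1.88 ± 0.11, Trex1 by −1.63 ± 0.057, Tmem173 (STING) by −1.59 ± 0.039 and Tlr9 by −1.30 ± 0.23 at 3 h, whereas Cgas, which makes the ligand of STING, was higher at 0 h (1.32 ± 0.056) and not past the threshold at 3 h (−0.04 ± 0.047, adjusted p = 0.45).

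**Figure D5:**
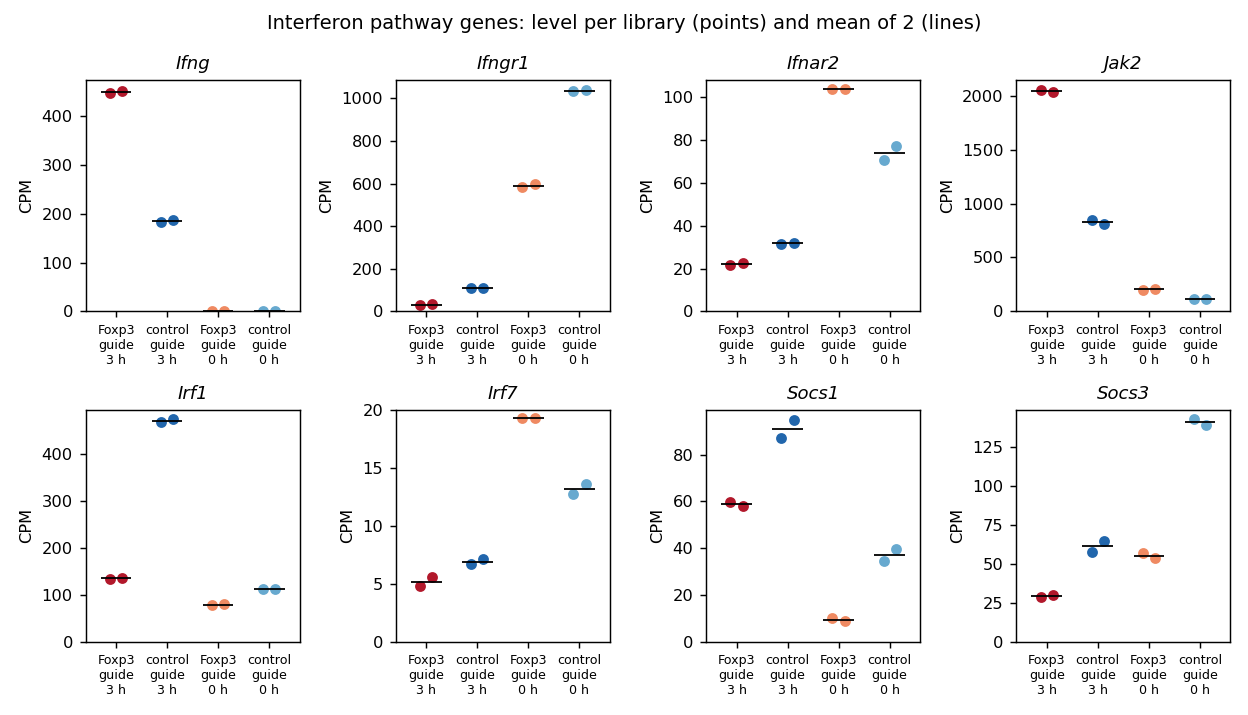
Level in CPM (y axis, from 0) of 8 interferon pathway genes in each of the 8 libraries (points) with the mean of the 2 libraries of a group (lines), by guide and time (x axis). Ifng and Jak2 are highest in Foxp3-guide cells at 3 h, Irf1 and Socs1 are highest in control-guide cells at 3 h, Ifngr1 and Socs3 are highest in control-guide cells at 0 h, and Ifnar2 and Irf7, added to the plot after their values were seen, are highest in Foxp3-guide cells at 0 h.

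A further 71 tested interferon-stimulated genes outside the list of 41 gave 52 lower and 14 higher with the Foxp3 guide at 3 h, with a median log2 change of −0.62, and 35 lower and 26 higher at 0 h, with a median of −0.16. Of all tested genes, 30.8% were lower and 30.7% higher at 3 h, with a median of −0.00859. At 0 h, 29.1% of all tested genes were lower and 34.2% higher, with a median of 0.0225. The genes of that list with the widest changes were Ifi205 (−4.21 ± 0.24 at 3 h, with 0 counts in every library at 0 h), Ms4a4c (2.16 ± 0.15 at 3 h and 3.33 ± 0.16 at 0 h), Ly6c2 (3.11 ± 0.22 at 3 h and 3.20 ± 0.17 at 0 h), Ifi204 (0.26 ± 0.24 at 3 h, not past the threshold, and 3.19 ± 0.38 at 0 h) and Slfn4 (1.89 ± 0.38 at 3 h and 2.61 ± 0.66 at 0 h). All 5 belong to families of similar genes, so the division of reads among relatives is uncertain.

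The scale matters for small changes. On log2(TPM + 1), the median log2 change of all tested genes with the Foxp3 guide lay at −0.118 at 3 h and −0.152 at 0 h. Of the genes called on that scale, 27.4% at 3 h and 27.9% at 0 h were higher with the Foxp3 guide, where the count model gave 49.9% at 3 h and 54% at 0 h. Of the 40 interferon-stimulated genes, 25 were then lower and 6 higher at 3 h, and 26 were lower and 9 higher at 0 h. Their median log2 change on that scale was −0.372 at 3 h and −0.476 at 0 h. For the response to stimulation, the all-gene median on log2(TPM + 1) was −0.177 in Foxp3-guide cells and −0.197 in control-guide cells. Rises made up 38.7% of the calls in Foxp3-guide cells and 37.3% of those in control-guide cells. With 12 rises and 26 falls in Foxp3-guide cells and 9 rises and 27 falls in control-guide cells, falls outnumbered rises among the 40 genes on this scale too. The median difference between the responses was −0.0223 on log2(TPM + 1), with 15 genes more negative and 11 more positive with the Foxp3 guide, where 51.5% of all genes called were more positive on that scale and 39.7% in the count model.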

How the data were processed

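RNA was sequenced from 8 libraries, 2 in each of 4 groups taken from the sample labels. The submitters' processing notes name Trim Galore 0.6.3 for trimming, STAR 2.7.9a for alignment, RSEM 1.3.1 for quantification and the mm10 build. The annotation release is not given in the sources used here. The authors deposited an expected count and a TPM value per gene. Expected counts were rounded to whole numbers and fitted with edgeR 4.0.16 (R 4.3.3): filterByExpr kept 16642 of 55665 genes, scaling was TMM, and a robust quasi-likelihood model held 1 mean per group over all 8 libraries, with 4 residual degrees of freedom and a common biological coefficient of variation of 3.41%. P-values were adjusted over all tested genes by Benjamini-Hochberg, with a threshold of 0.05 (adjusted p). CPM is relative to library sizes multiplied by their TMM factors. The steps were tested on simulated data, in which a small share of genes was changed, in Foxp3-guide cells at 0 h alone. In the real data most genes passed the threshold between guides and times, so the simulation does not test the scaling under such wide changes.

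The 41 genes and the pathway lists were chosen with earlier results of these data known. A gene of the signal transducer list is not reported here. Genes were given in full if called with a log2 change of at least 1 in any pairwise comparison at a mean of at least 1 CPM, or if they had the highest mean TPM of their role, and in each pathway list at most the 5 widest changes were eligible for naming; a few further genes are named for completeness. Shared sequence was measured as the percent of a gene's 50-base words found in another gene's transcripts (GENCODE M21, in which all 41 IDs matched, 40 of them with their version). The p-values cover the spread between libraries, and counts per gene differed between replicates by more than sampling noise (chi-square per gene 4.384 to 7.108), so none was treated as a duplicate. Alternatives were other scalings, DESeq2 1.42.0, limma 3.58.1 (voom, and limma-trend on log2(TPM + 1) and log2(TPM + 0.1)), other filters, equal depth, a replicate block, fewer libraries in the fit, and each library left out.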

Additional observations from a re-analysis of the deposited data

Results flagged for a closer look

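The response to stimulation differed between the guides for 27 of the 40 tested genes, by the interaction term of edgeR's quasi-likelihood model (adjusted p below the threshold over all tested genes). Each value here is the log2 change after stimulation with the Foxp3 guide minus that with the control guide. The more negative responses with the Foxp3 guide belonged to Apol9b (−2.82), Apol9a (−1.94), Ifit1bl1 (−1.94), Rtp4 (−1.85), Oasl2 (−1.23), Xaf1 (−1.05), Parp9 (−0.85), Dtx3l (−0.80), Samd9l (−0.76), Igtp (−0.75), Ifit1 (−0.59), Dhx58 (−0.57), Trim30a (−0.54), Bst2 (−0.51), Parp14 (−0.50), Ly6e (−0.32), Trim25 (−0.28) and Ifi27l2a (−0.17). The more positive ones belonged to Gbp2 (1.90), Rsad2 (1.87), Ifih1 (1.69), Gbp7 (1.45), Gbp3 (1.28), Usp18 (1.15), Isg15 (0.57), Ifi35 (0.29) and Irgm1 (0.17). Genes of one role fell on both sides: among the GTPase genes, Gbp2, Gbp7, Gbp3 and Irgm1 were more positive and Igtp more negative. Of the 27 differences, that of Ifi27l2a was lost in 12 of 18 alternatives and that of Ifit1 in 8. With 2 libraries in each group, no single library could be tested for standing apart from its group.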

How the results depend on the processing

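Counts of genes called moved by less than 1.5 times in every alternative run, except that on the 3 TPM scales 6 genes and not 10 were higher with the Foxp3 guide at 3 h. Signs of values called in the count model or the alternative turned as follows. On the 3 TPM scales, Ifi27 (0.15 at 0 h and 0.06 at 3 h) was −0.17 at 0 h and −0.18 at 3 h, Trim25 at 0 h (0.20) was −0.08, Parp9 at 0 h (0.07) was −0.2 to −0.19, and the rise of Parp14 with the Foxp3 guide (0.24) was −0.05. For the response in control-guide cells, upper-quartile scaling gave −0.08 for Ifi35 (0.15), −0.01 for Parp9 (0.23) and −0.18 for Trim25 (0.06), and the 3 TPM scales gave −0.22 for Ifi35, −0.03 for Parp9 and −0.25 for Trim25. The difference in response of Apol9a (−1.94) was 0.94 on log2(TPM + 1) with or without the filter and −0.79 (adjusted p = 0.113) on log2(TPM + 0.1). The cause was not tested. With upper-quartile scaling the all-gene median response was −0.242 in Foxp3-guide cells and −0.246 in control-guide cells. Leaving out 1 library gave 9 to 10 higher and 20 to 23 lower genes with the Foxp3 guide at 3 h, and 10 to 12 higher and 19 to 24 lower at 0 h. It gave 13 rises and 22 to 24 falls in Foxp3-guide cells, 10 to 11 rises and 21 to 24 falls in control-guide cells, and 8 to 10 more positive and 15 to 18 more negative responses. The median difference in response was −0.25 to −0.0655, the last without Foxp3-guide replicate 2 at 3 h. Beyond the calls named in the text, the omission of some single library lost those of Cmpk2, Ifi27, Ifit3b and Oas1a at 0 h, of Rsad2, Ifi27 and Oas2 for the response in Foxp3-guide cells, of Ifi35, Ifit3b, Oas1a and Zbp1 for the response in control-guide cells, and of Ifit1, Isg15, Dhx58 and Ifi27l2a for the difference. Deviations of same-numbered libraries from their group means had correlations of −0.0757 to 0.00947 between groups, over all tested genes. With 2 libraries per group this cannot settle whether equal replicate numbers pair libraries, which the sources used here do not say. With a replicate block there were 10 higher and 23 lower genes at 3 h, 12 and 23 at 0 h, 13 rises and 23 falls in Foxp3-guide cells, 11 rises and 24 falls in control-guide cells, and 9 more positive and 18 more negative responses. Under the block 2 calls were lost, those of Dhx58 at 0 h (adjusted p = 0.0647) and of Oas2 for the response in Foxp3-guide cells (adjusted p = 0.067). Fitting only the libraries compared gives no value for the difference in response. Genes under about 1 CPM, such as Oas2 and Ifi44, had few counts, so their values are less certain.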

Other observations

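Relatives of the genes described above, from the list of other interferon-stimulated genes and named here after their values were seen, also went in opposite directions. The interferon-induced transmembrane genes Ifitm1, Ifitm2 and Ifitm3, whose products block viral entry at membranes, were higher with the Foxp3 guide at both times. Ifitm2 had 144 and 146 CPM in Foxp3-guide cells against 35.6 and 41.4 CPM in control-guide cells at 3 h, and 104 and 106 CPM in Foxp3-guide cells against 31.7 and 31.5 CPM in control-guide cells at 0 h. Its log2 change was 1.91 ± 0.050 at 3 h and 1.73 ± 0.051 at 0 h, that of Ifitm1 1.74 ± 0.052 at 3 h and 1.70 ± 0.049 at 0 h, and that of Ifitm3 1.77 ± 0.057 at 3 h and 1.25 ± 0.056 at 0 h. Ifit2 was also higher, by 0.48 ± 0.082 at 3 h and 1.20 ± 0.050 at 0 h.

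Further interferon-inducible GTPase genes were lower with the Foxp3 guide. Gbp5 had 53.4 and 55.5 CPM in Foxp3-guide cells against 173 and 169.8 CPM in control-guide cells at 3 h, and 19.8 and 18.6 CPM in Foxp3-guide cells against 112 and 109.8 CPM in control-guide cells at 0 h. Like Gbp2, it was at its lowest in Foxp3-guide cells at 0 h, with a log2 change of −1.65 ± 0.040 at 3 h and −2.53 ± 0.044 at 0 h. Gbp6 changed by −1.23 ± 0.036 at 3 h and −0.95 ± 0.042 at 0 h, and Irgm2 by −1.61 ± 0.040 at 3 h and −0.85 ± 0.042 at 0 h. The Schlafen family was split: Slfn5 (−2.29 ± 0.057 at 3 h and −1.06 ± 0.056 at 0 h) and Slfn8 (−2.07 ± 0.051 at 3 h and −0.99 ± 0.051 at 0 h) were lower, while Slfn1 (0.45 ± 0.045 at 3 h and 1.88 ± 0.042 at 0 h) and Slfn2 (0.28 ± 0.040 at 3 h and 1.32 ± 0.042 at 0 h) were higher. Slfn4 was higher too. Also lower were Tdrd7, which encodes a Tudor domain protein (−2.23 ± 0.088 at 3 h and −1.25 ± 0.074 at 0 h), and the helicase gene Ddx60 (−1.80 ± 0.15 at 3 h and −1.12 ± 0.095 at 0 h). Every adjusted p in these paragraphs passed the threshold in edgeR's quasi-likelihood test, and relatives within a family share sequence, so part of their reads is uncertain.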
